A study of Mus musculus with 7 samples.

Results

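The tumors of MMTV-PyMT mice arise in mammary epithelium that carries the polyoma middle T oncogene (PyMT), listed as PYMT in the count matrices, under the promoter of the mouse mammary tumor virus. Alveolar-type epithelial cells of these tumors were sorted here by their own counts. In the first kind of cell no PYMT mRNA was captured, and in the second it was captured at least 2 times. The other genes of both kinds of cell were compared within each mouse. Whether the cells without captured PYMT mRNA were tumor cells or untransformed epithelium was not tested. Of 37000 barcodes in 7 libraries, 15047 were cells and 1325 were alveolar-type cells deep enough for this comparison, and 244 of these had 0 PYMT UMIs, 203 had 1 and 878 had 2 or more. A UMI (unique molecular identifier) stands for 1 captured mRNA molecule. A cell without a PYMT UMI is not shown to be silent for the transgene, since a molecule that was present may not have been captured, and the cells are therefore named here by their counts.

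An alveolar-type cell had 200 to 6000 genes and at least 1500 UMIs, a sum of at least 3 UMIs of the epithelial genes Epcam, Krt8 and Krt18, a sum of at least 3 UMIs of Wfdc18, Plet1 and Lcn2, and at most 1 UMI of the hormone-sensing luminal genes Fgb, Fgg, Ptn, Prlr and Cited1. The cells were thus chosen by their measured counts of PYMT and of these 11 genes, whose levels are therefore given as a description with no test. All 7 libraries were Drop-seq libraries of primary mammary tumors of control mice, 1 mouse per library, with the genotype MMTV-PyMT; HK2 f/f, and the labels place the tumors 3 months after a tumor could be felt. Per the study's methods, the mice were on a C57BL/6 background, lacked the Cre transgene that deletes the floxed HK2 alleles in the other arm, and received tamoxifen like that arm. The titles form a CB series (replicates 1, 2, 3 and 4) and a WT series (replicates 5, 7 and 8), whose meaning is not given. The MMTV promoter is active mainly in mammary epithelium and responds to steroid hormones.

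In the mammary gland, luminal cells of the alveolar lineage make milk proteins under the control of factors such as ELF5, GATA3 and STAT5, hormone-sensing luminal cells carry the estrogen and progesterone receptors, and myoepithelial cells carry basal keratins and contract to expel milk. PyMT is a membrane-bound adaptor without enzymatic activity of its own, which recruits SRC kinases, phosphoinositide 3-kinase and SHC and so switches on growth signals.

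The share of alveolar-type cells without a PYMT UMI was 21.8, 20.2, 33.5 and 20.1% in CB replicates 1, 2, 3 and 4 and 7.32, 8.98 and 18.2% in WT replicates 5, 7 and 8. Replicates 5 and 7 lay below the other mice, and replicate 3 lay above them. PYMT itself was at 984, 1181, 769.8 and 1577 CPM (UMIs of PYMT per 1000000 UMIs of the summed cells) in the CB series and at 3268, 2638 and 3620 CPM in the WT series, so every WT mouse lay above every CB mouse. If every cell of a mouse had held PYMT at the same level and only its depth had varied, a Poisson count would have left 28.8, 8.29, 28.5, 8.08, 0.144, 1.10 and 0.043 cells without a UMI in replicates 1, 2, 3, 4, 5, 7 and 8, against 63, 25, 63, 47, 9, 29 and 8 found. The observed number was thus 2.19 to 5.82 times the Poisson number in the CB series, and 9, 29 and 8 cells against about 1 cell or fewer in the WT series.

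**Figure D1:**
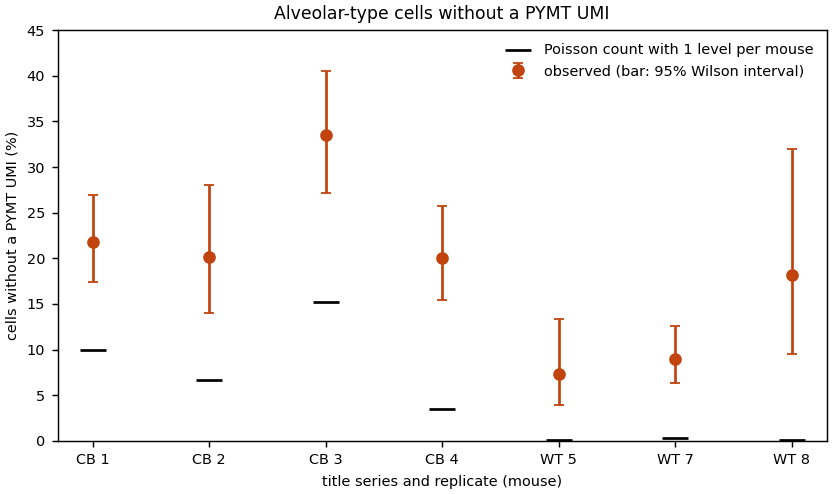
Share of alveolar-type cells without a PYMT UMI (vertical axis, percent) in each of the 7 mice. Points are the observed shares with 95% Wilson intervals, which cover counting error only, and dashes are the shares that a Poisson count with 1 PYMT level per mouse would give, which lie below every interval.

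Such an excess of zeros was not particular to PYMT. Genes of like level in the same cells had a median excess of 1.51 to 5.08 percentage points over their own Poisson share, and PYMT had 7.20 to 18.4 points, but between 1 and 12 of the 12 to 94 genes of like level had a larger excess than PYMT in each mouse. The share was lower in the deepest cells. Of the cells with 1500 to 2000 UMIs 25.1% had none, against 22.2% with 2000 to 3000 UMIs and 9.34% with 3000 or more, where the Poisson shares were 11.1, 5.62 and 1.03%. Within each of the 7 mice the share was lowest from 3000 UMIs on, while between the other classes it rose in replicates 1, 5 and 8 and fell in the others. Barcodes with fewer than 200 genes, among them droplets with free RNA alone, had 552 to 1419.8 CPM of PYMT, and in replicate 3 that level, 944 CPM, was above the 769.8 CPM of its alveolar-type cells. Cells of at least 1500 UMIs without an epithelial UMI had 0 to 166 CPM, and at most 8 of 73 of them had a PYMT UMI in any mouse (replicate 5), at median depths of 1850 to 2224 UMIs.

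Because deep cells are more likely to show PYMT, each cell without a PYMT UMI was matched to a cell with 2 or more in the same library by its total UMIs, PYMT left out. Cells of 1 mouse share a library and are not replicates, so UMIs were summed per mouse and group. Replicates 1, 2, 3, 4 and 7 gave 63, 25, 63, 47 and 29 pairs, 227 in all, with 59959 to 160556 UMIs per sum of cells without PYMT and 60168 to 162268 in the matched sums. Replicates 5 and 8 gave 9 and 8 pairs, under the minimum of 10, and stayed out of the fit. The match was least close in replicate 3, with a median of 2044 UMIs per cell without PYMT and 2290 with it. Its mean number of genes per cell was 1199 against 1289. The part of this difference in the calls was not tested. The number of genes per cell was 1243 ± 42.3 in cells without PYMT and 1263 ± 38.4 in matched cells (SD, n = 5), higher in 1 of 5 mice (exact sign-flip permutation test, two-sided, p = 0.4375, where 0.0625 is the smallest that 5 mice allow). Sums of UMIs do not separate a larger number of cells with a transcript from more transcript per cell, so the share of cells with a UMI is given beside them for several genes.

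Cells without a PYMT UMI had less mRNA of 4 of the 8 tested milk genes, of Dennd2d and of the transcription factors Gata3 and Hey1, and more mRNA of the keratin genes Krt14 and Krt7, of S100a6 and Anxa1 and of the connexin gene Gja1. Of 1812 genes tested, edgeR (quasi-likelihood test, blocked by mouse, p-values adjusted by Benjamini-Hochberg over the genes tested) called 25 higher in cells without PYMT, 1.38% of the genes tested, and 29 lower, 1.60%. Of the called genes, 19 were higher and 23 were lower in each of the 5 mice. Anxa3 was higher in 4 mice and had 14 UMIs in each group in replicate 7. It is counted below with the genes that rose in every mouse, since the totals of that mouse differed by 1 UMI and its CPM was by that margin higher. Of the 1812 genes, 247 had an unadjusted p under 0.05 by edgeR. The median log2 fold change of all genes tested was -0.0075 after TMM scaling, which centers the fold changes. DESeq2 called 18 of the 899 genes to which it gave an adjusted p (10 higher, 8 lower), all of them among the 54 called by edgeR. Of these 54, 11 got no adjusted p from it. EdgeR without the mouse as a block called 0 (98 at an unadjusted p under 0.05). Single libraries mattered, since 15 genes were called without replicate 3 (14 of them among the 54) and 29 without replicate 1 (24 among the 54). The 15 genes with the largest rise and the 15 with the largest fall among called genes of 1 direction in every mouse make up the 30 genes followed here. They were chosen for such differences and for 1 direction in every mouse. A lack of overlap between their groups, or the same direction in each of the 5 mice, is therefore a description only. The share of all 1812 genes tested whose groups do not overlap is not given here. Of these, 26 could be tested without replicate 3 and 15 of these missed the threshold, among them Krt14, Krt7, Gja1, Perp, Csn3, Folr1 and Gata3. Gata3 and 6 others of the 30 missed it without replicate 1. Each kept its direction, which the choice of genes with 1 direction in every mouse had largely fixed. Calls also moved in a setting that changed the PYMT call, the depth of every cell and the mice at the same time. It held 7 mice, against 5 in the main fit. The parts of these changes were not tested apart. With the groups set from the PYMT UMIs left after each cell was thinned to 1500 UMIs, 24 of the 30 genes could be tested and 15 of these missed the threshold, Dmkn, Krt14, Perp, Anxa3, Tpm4, Tagln2, Gata3, Folr1, Lipa, Lalba, Lrg1, Aqp5, Csn3, Pik3r1 and Gm23935, the last with its direction reversed. The log2 fold change of Dmkn was then 1.15 instead of 3.05 and that of Krt14 0.76 instead of 1.86. That of Perp was 0.30 instead of 1.37, that of Anxa3 0.50 instead of 0.99 and that of Tagln2 0.32 instead of 0.80. Among the genes that fell, it was -0.46 instead of -1.15 for Folr1 and -0.32 instead of -0.98 for Aqp5. It was -0.64 instead of -1.08 for Lalba, -0.74 instead of -1.20 for Gata3 and -0.72 instead of -1.12 for Lipa. Ly6a, Krt7, Gja1, S100a6, Anxa1, Lgals3, S100a10, Trf and Scgb2b27 were still called.

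**Figure D2:**
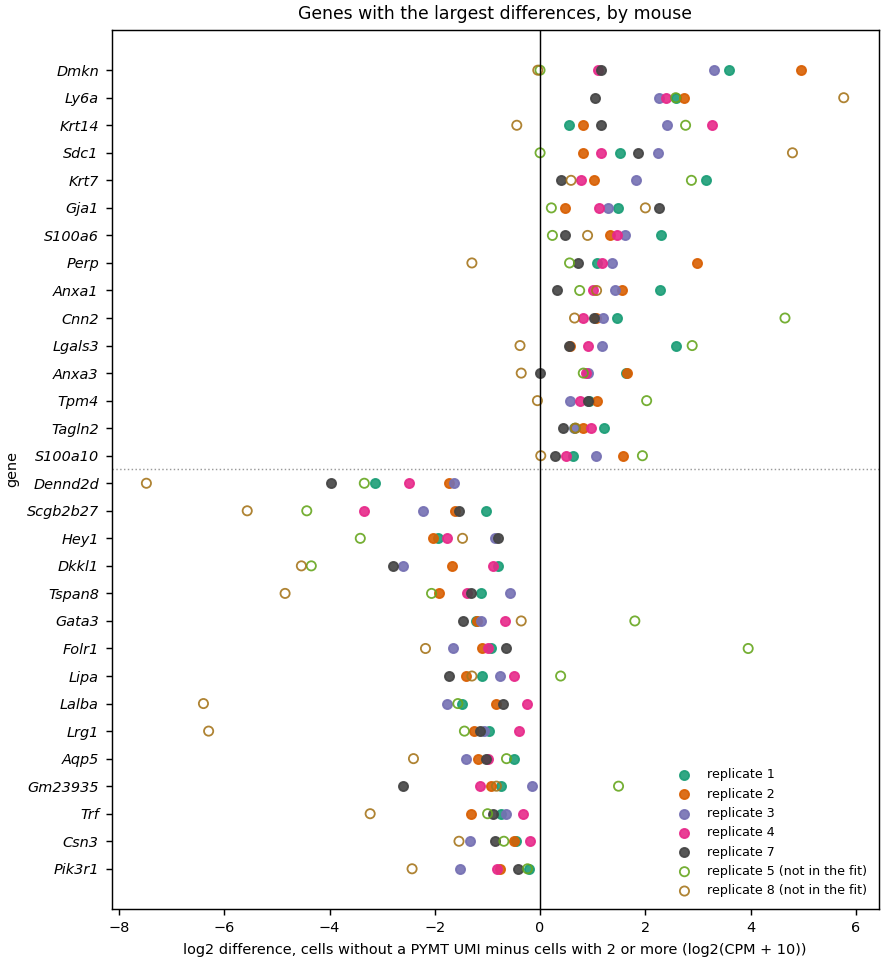
Difference between cells without a PYMT UMI and matched cells with 2 or more (horizontal axis, log2(CPM + 10)) in each mouse for the 15 genes with the largest rise and the 15 with the largest fall among called genes that changed the same way in 5 of 5 mice (Anxa3 in 4, with replicate 7 at 0). Filled points are the 5 mice of the fit, of which none lies on the opposite side of 0, and open points are replicates 5 and 8, which scatter more widely on 9 and 8 pairs.

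Dennd2d had the largest fall among the called genes. It encodes a DENN domain protein, a family whose members act as exchange factors for Rab GTPases, and lies on GRCm38 (mm10) at chromosome 3, 106482405 to 106503030, plus strand, where its exons overlap those of Cept1 and 2010016I18Rik. In replicates 1, 2, 3, 4 and 7, in this order here and in every list of 5 values below, Dennd2d was at 12.5, 83.4, 46.7, 27.7 and 0 CPM in cells without a PYMT UMI and 187, 299.8, 167, 203 and 148 CPM in cells with 2 or more. Every mouse lay lower without PYMT and the groups did not overlap, at 34.1 ± 32.6 against 201 ± 59.2 CPM (SD, n = 5, log2 fold change -2.60, SE 0.37, adjusted p = 0.00022 by edgeR). Dennd2d had a UMI in 6.61% against 35.7% of the cells, and DESeq2 gave it no adjusted p. Replicates 5 and 8, outside the fit, had 48.3 against 580.3 CPM (1 and 12 UMIs) and 0 against 1775 CPM (0 and 32 UMIs).

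Gata3, the transcription factor that maintains luminal identity in the mammary gland, fell in the cells without PYMT. The gene lies at chromosome 2, 9857078 to 9890034, minus strand, and its exons overlap Gm13256 and 9230102O04Rik. Gata3 was at 137, 66.7, 40.1, 129 and 73.8 CPM in cells without a PYMT UMI and 331, 167, 98.8, 213 and 221 CPM in cells with 2 or more. It was lower in 5 of 5 mice, although replicate 1 without PYMT lay above replicate 3 with PYMT, at 89.4 ± 42.0 against 206 ± 85.0 CPM (SD, n = 5, log2 fold change -1.20, SE 0.25, adjusted p = 0.0072 by edgeR), with a UMI in 16.7% against 36.6% of the cells. Hey1 (chromosome 3, 8663359 to 8667256, minus strand), a transcriptional repressor that acts downstream of Notch receptors, was at 62.3, 33.4, 60.1, 102 and 88.5 CPM in cells without a PYMT UMI and 268, 167, 117, 369.8 and 162 CPM in cells with 2 or more. The groups did not overlap (log2 fold change -1.65, SE 0.28, adjusted p = 0.00099 by edgeR). Hes1, also a Notch target, fell (log2 fold change -0.62, adjusted p = 0.020 by edgeR). It was named after its values were seen, and no list of Notch targets was tested. Without the cells that had 2 or more UMIs of the immune cell list, Hes1 missed the threshold.

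Of 21 mammary transcription factors, 12 were tested and 2 fell, Gata3 and Cebpd (log2 fold change -0.65, adjusted p = 0.049 by edgeR), with a median log2 fold change of -0.41. Of the 12, 6 had an unadjusted p under 0.05 by edgeR, against 247 of all 1812 genes tested, of which 1.60% were called lower. DESeq2 called 0 of the 12, with no adjusted p for Gata3 and 0.26 for Cebpd. The summed level of the list was 3378 to 5126 CPM in cells without PYMT and 4759 to 6211 CPM in matched cells, lower in 5 of 5 mice. Elf5, which drives the alveolar fate, was lower in 5 of 5 mice at 172 ± 43.8 against 252 ± 72.9 CPM (SD, n = 5) but missed the threshold (adjusted p = 0.24 by edgeR). Ehf, an ETS factor of epithelium, was at 786 ± 68.4 against 869 ± 285 CPM (SD, n = 5, adjusted p = 0.80 by edgeR), higher in 3 of 5 mice. Stat5a and Stat5b, which carry the prolactin signal, had 4 and 7 UMIs without PYMT and 14 and 11 with it and were not tested.

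Milk genes fell in part. Of 16 listed, 8 were tested and 4 fell (Csn3, Lalba, Folr1 and Muc15, a membrane mucin of milk), 0 rose, and the median log2 fold change was -0.64. Of the 8, 5 had an unadjusted p under 0.05 by edgeR, and DESeq2 called 2, Csn3 and Lalba. Over all 1812 genes tested, 1.60% were called lower and 247 had an unadjusted p under 0.05 by edgeR. Csn3 (chromosome 5, 87925579 to 87932665, plus strand) encodes kappa-casein, the protein that keeps casein micelles in suspension. It was at 17284, 14844, 8458, 21436 and 20651 CPM in cells without a PYMT UMI and 23859, 21003, 21293, 24408 and 37289 CPM in cells with 2 or more. The fall held in each mouse (log2 fold change -0.69, SE 0.12, adjusted p = 0.0016 by edgeR) but was smallest in replicate 4, and 95.2 and 96.9% of the cells had a UMI. Lalba (chromosome 15, 98480400 to 98482721, minus strand) encodes alpha-lactalbumin, the subunit of lactose synthase that is made only for milk. It was at 1246, 617, 280.4, 795 and 457 CPM in cells without a PYMT UMI and 3508, 1116, 975, 943 and 752 CPM in cells with 2 or more, with replicate 1 above the other mice in both groups (log2 fold change -1.08, SE 0.18, adjusted p = 0.00088 by edgeR). Folr1, which encodes a folate receptor that is also shed into milk, did not overlap between the groups, at 117 ± 33.0 against 250.1 ± 46.8 CPM (SD, n = 5, log2 fold change -1.15, SE 0.24, adjusted p = 0.0065 by edgeR).

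The other milk genes did not move together. Csn1s1 was higher without PYMT in 2 of 5 mice, at 1016 ± 1054 against 586 ± 949 CPM (SD, n = 5), and missed the threshold (log2 fold change 0.93, adjusted p = 0.43 by edgeR). Csn2, the gene of beta-casein, was not tested. It had 277 UMIs in cells without PYMT and 0 in matched cells, with 4586 CPM in replicate 2 and 0 to 14.7 CPM in the other mice. Mfge8, Plin2 and Muc1, which encode proteins of the milk fat globule, had log2 fold changes of 0.18, 0.07 and -0.58 and none passed the test. The summed level of the list was 12104 to 30771 CPM without PYMT and 24901 to 40239 CPM with it, lower in 4 of 5 mice with replicate 2 as the exception.

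Trf, Lrg1 and Aqp5 were also among the genes that fell, while 0 of the 11 tested genes of the fixed secretory pathway list were called (median log2 fold change -0.093, 1 at an unadjusted p under 0.05 by edgeR). Trf, the gene of the iron carrier transferrin, was at 1565 ± 731 against 2671 ± 1215 CPM (SD, n = 5, log2 fold change -0.78), Lrg1, a secreted leucine-rich glycoprotein, at 359 ± 123 against 715 ± 284 CPM (SD, n = 5, log2 fold change -0.99), and Aqp5, a water channel of secretory glands, at 224 ± 139 against 428 ± 152 CPM (SD, n = 5, log2 fold change -0.98), each lower in 5 of 5 mice, with adjusted p = 0.0010, 9.0e-04 and 0.0039 by edgeR. Tspan8, a tetraspanin listed with the luminal progenitor genes, had a log2 fold change of -1.37 (adjusted p = 0.0092 by edgeR). Together with Hey1 it made up the 2 calls among 9 tested luminal progenitor genes, to both of which DESeq2 gave no adjusted p. Of the 9 tested luminal progenitor genes, 6 had an unadjusted p under 0.05 by edgeR, against 247 of all 1812 genes tested, of which 1.60% were called lower. Elf5 and Ehf stand both in this list and among the mammary transcription factors, so the counts of these lists are not separate results. Kit, the receptor that marks these progenitors, was at 83.7 ± 30.9 against 189 ± 173 CPM (SD, n = 5, adjusted p = 0.17 by edgeR). Lipa, the lysosomal acid lipase, and Pik3r1, the regulatory subunit of the kinase to which PyMT binds, had log2 fold changes of -1.12 and -0.68 (adjusted p = 0.0091 and 0.037 by edgeR). Dkkl1 (log2 fold change -1.60) and Gm23935 (log2 fold change -0.97), annotated as a miRNA gene, also fell, as did Scgb2b27. The calls of 3 of the 30 genes depended most on the processing. Pik3r1 missed the threshold in 12 of 25 alternatives (log2 fold change -0.33, adjusted p = 0.31 by edgeR, with each cell thinned and not matched), Anxa3, which rose, in 12 of 22, and Gm23935 in 13 of 24 with a reversal in 1 more. The log2 fold change of Gm23935 was -0.21 without matching, -0.20 with each cell thinned and not matched, and 0.085 with PYMT groups called after thinning (adjusted p = 0.70, 0.75 and 0.94 by edgeR). Scgb2b27 belongs to a family of secretoglobin genes with near-identical copies, so its UMIs are uncertain. It had 117 UMIs without and 595 with PYMT (log2 fold change -2.16), of which 115 lay in a single cell of replicate 4.

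**Figure D3:**
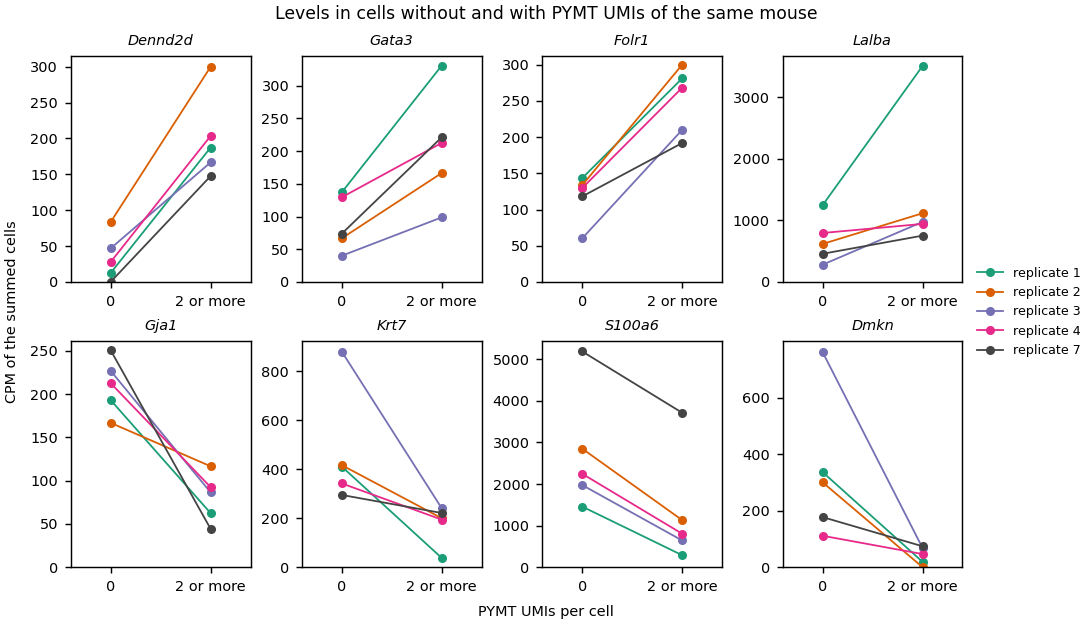
Level of 8 genes (vertical axes, CPM of the summed cells, each axis from 0) in cells without a PYMT UMI and in matched cells with 2 or more, with a line for each of the 5 mice. The upper genes fall and the lower genes rise without PYMT in each mouse, as the choice of the genes required. For Dennd2d, Folr1, Gja1, Krt7 and Dmkn the groups do not overlap, a description only, since the genes were chosen for large differences.

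Among the genes that rose, Krt7 and Krt14 encode a keratin of simple epithelium and a keratin of basal cells. Krt7 (chromosome 15, 101411043 to 101430313, plus strand, with exons that overlap Gm671) was at 411, 417, 881, 342 and 295 CPM in cells without a PYMT UMI and 37.5, 199.9, 241, 194 and 221 CPM in cells with 2 or more. The groups did not overlap, although replicate 7 differed little (log2 fold change 1.53, SE 0.27, adjusted p = 0.0015 by edgeR). Krt14 (chromosome 11, 100203162 to 100207548, minus strand) was at 87.2, 300.2, 995, 351 and 339 CPM in cells without a PYMT UMI and 56.2, 167, 179, 27.7 and 148 CPM in cells with 2 or more. Each mouse lay higher without PYMT (log2 fold change 1.86, SE 0.30, adjusted p = 0.00070 by edgeR), with replicate 3 far above the others, and 28.6% against 13.7% of the cells had a UMI. Krt5, the partner of Krt14 in basal cells, had 18 UMIs without PYMT, all in 1 cell of replicate 1, and 0 with it. Krt14 was the only one of 12 myoepithelial genes deep enough to be tested. The list summed to 417 to 1242 CPM without PYMT and 102 to 358 CPM with it, higher in 5 of 5 mice, while its contractile gene Acta2 had 25 and 8 UMIs and Oxtr had 2 and 2. The part of myoepithelial cells in the result was not tested.

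S100a6, a calcium-binding protein of the S100 family, was at 1457, 2852, 1976, 2247 and 5192 CPM in cells without a PYMT UMI and 287, 1133, 642, 804 and 3717 CPM in cells with 2 or more, higher without PYMT in 5 of 5 mice (log2 fold change 1.38, SE 0.18, adjusted p = 7.7e-05 by edgeR). Replicate 7 had more of it in both groups than any other mouse. S100a10 and its ligand Anxa2, together with Anxa1 and Anxa3, which are calcium-dependent binders of membrane phospholipids, rose as well. Anxa1 had the largest log2 fold change among these, at 1061 ± 295 against 461 ± 209 CPM (SD, n = 5, log2 fold change 1.29, SE 0.20, adjusted p = 0.00058 by edgeR), and S100a10, Anxa2 and Anxa3 had 0.75, 0.69 and 0.99 (adjusted p = 0.015, 0.024 and 0.048 by edgeR). S100a10 and the annexin genes were grouped after their values were seen, and no fixed list holds them. Anxa2 missed the threshold by DESeq2 (adjusted p = 0.14) and by edgeR with all 7 mice (adjusted p = 0.073). Lgals3, a galectin that binds sugar chains, had a log2 fold change of 1.04 (adjusted p = 0.0042 by edgeR).

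The genes described next were grouped after their values were seen, and no fixed list covers them. Gja1 (chromosome 10, 56377330 to 56402513, plus strand), which encodes the gap junction protein connexin 43, was at 193, 167, 227, 213 and 251 CPM in cells without a PYMT UMI and 62.4, 117, 86.4, 92.5 and 44.3 CPM in cells with 2 or more. The groups did not overlap (log2 fold change 1.39, SE 0.27, adjusted p = 0.0039 by edgeR). Perp, a component of desmosomes, was at 194 ± 63.6 against 71.0 ± 38.2 CPM (SD, n = 5, log2 fold change 1.37, SE 0.29, adjusted p = 0.0068 by edgeR), and Sdc1, the cell-surface proteoglycan syndecan-1, at 141 ± 41.7 against 46.4 ± 31.6 CPM (SD, n = 5, log2 fold change 1.72, SE 0.35, adjusted p = 0.0053 by edgeR). Cnn2, Tpm4, Tagln2, Tpm1 and Tmsb4x, which bind actin or its monomers, had log2 fold changes of 1.20, 0.81, 0.80, 0.64 and 0.68 (adjusted p = 0.0091, 0.0065, 0.0059, 0.025 and 0.0016 by edgeR). Of 7 tested genes of the fixed junction and keratin list, only Krt7 rose and 0 fell, with a median log2 fold change of -0.083. Cdh1, the gene of E-cadherin, was at 172 ± 48.7 against 182 ± 45.6 CPM (SD, n = 5, adjusted p = 0.92 by edgeR).

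Dmkn, which encodes the secreted epidermal protein dermokine, had the largest fold change among the called genes (log2 fold change 3.05, SE 0.38, adjusted p = 4.8e-05 by edgeR) but rested on few cells. It was at 336, 300.2, 761, 111 and 177 CPM in cells without a PYMT UMI and 18.7, 0, 67.9, 46.2 and 73.8 CPM in cells with 2 or more, and the groups did not overlap. Of the 114 UMIs of Dmkn in replicate 3, however, 86 came from 1 of its 63 cells, and over the 5 mice 15.4% against 7.93% of the cells had a UMI. Of the other 14 genes that rose, Krt14 had the largest share of its UMIs without PYMT in 1 cell, 29 of 242.

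The same comparison on the number of cells with a UMI of a gene, in place of UMIs, was added after the data had been seen. It called 2 of 1458 genes (70 at an unadjusted p under 0.05), Dennd2d (log2 fold change -2.36, adjusted p = 4.0e-05 by edgeR) and Gata3 (-1.11, adjusted p = 0.028 by edgeR). The 42 of the 54 called genes that could be tested in this way all kept their direction, but most differences were smaller on this measure. The log2 fold change of S100a6 was 0.41, that of Krt7 0.61, that of Trf -0.24 and that of Csn3, which had a UMI in over 95% of the cells and so could hardly differ, -0.0086. With cells of at least 2500 UMIs alone, 0 of 695 genes were called (76 at an unadjusted p under 0.05). The 37 called genes that could be tested there all kept their direction, and Dennd2d and Gata3 were not among them. Among the genes followed here, the log2 fold change was larger in size than in the main fit for Krt7 (1.91), Anxa1 (1.69), Lalba (-1.46), Csn3 (-0.88), Aqp5, Gm23935 and Pik3r1. It was smaller in size for Krt14 (1.44), S100a6 (0.93), Lgals3 (0.87), S100a10 (0.52), Tpm4, Tagln2, Lrg1 and Trf.

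The cells with exactly 1 PYMT UMI, which entered neither group, are given as a description, since the 30 genes were chosen on cells of the classes on either side. The mean level was ordered over cells with 0, 1, 2 to 3 and 4 or more PYMT UMIs for 11 of the 15 genes that rose and 10 of the 15 that fell. The share of all 1812 genes tested with such an order is not given here. The choice of the genes had largely set the order of the end classes, so these counts are a description only. Dennd2d was at 34.1, 66.3, 106 and 205 CPM in cells with 0, 1, 2 to 3 and 4 or more PYMT UMIs, Gata3 at 89.4, 127, 170.4 and 189 CPM, and S100a6 at 2745, 2063, 1188 and 883 CPM (means of 5 mice). Single mice did not all follow the order of the means. S100a6 was not ordered in any of the 5 mice. In replicate 2, for example, it rose from 933 CPM with 1 PYMT UMI to 1620 CPM with 2 to 3. These classes were not matched, and their median depths were 2139, 2281, 2294 and 3164 UMIs over 227, 185, 259 and 487 cells.

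**Figure D4:**
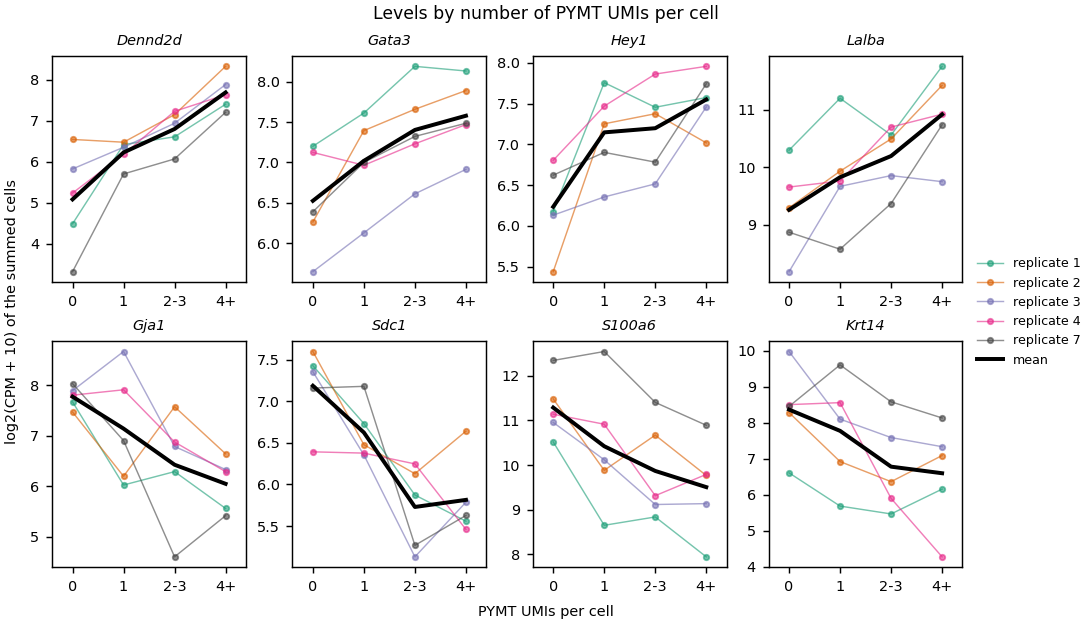
Level of 8 genes (vertical axes, log2(CPM + 10) of the summed cells) in alveolar-type cells with 0, 1, 2 to 3 and 4 or more PYMT UMIs (horizontal axis), without matching of depth. Thin lines are the 5 mice and the thick line is their mean, which for Dennd2d goes up and for S100a6 goes down at each step. The lines of single mice do not all follow these steps, and for S100a6 none does.

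Replicates 5 and 8 had no part in the fit from which the 30 genes, the largest changes among called genes of 1 direction in every mouse, were taken. Of the 15 that rose, 13 were also higher without PYMT in replicate 5 and 9 in replicate 8, and of the 15 that fell, 11 and 15 were also lower. Leaving aside ties, 82.8 and 80.0% of the 30 genes had the direction of the fit, against 56.4 and 57.6% of all 1812 genes tested. In replicate 5 the share was 92.9% of the genes that rose and 73.3% of those that fell. In replicate 8 it was 60.0 and 100%, so there the genes that rose lay near the share of all genes tested. Krt7 was at 773 against 96.7 CPM in replicate 5 and 589 against 388 CPM in replicate 8, and Csn3 at 14496 against 23358 CPM and 5674 against 16526 CPM. Gata3 was the opposite way in replicate 5, at 193 against 48.4 CPM, on 4 and 1 UMIs. With all 7 mice in the fit, 53 genes were called, among them 40 of the 44 called genes that could be tested.

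The remaining calls were more varied. Apoe, the apolipoprotein of lipid transport, Ndrg1, a gene induced by low oxygen, Scd1, a fatty acid desaturase, the cytokine gene Mif and the nucleolar Npm1 rose, with log2 fold changes of 1.59, 1.16, 0.84, 0.74 and 0.52 (adjusted p = 0.0042, 0.013, 0.044, 0.031 and 0.047 by edgeR). Apoe was higher in 4 of 5 mice, at 409 ± 614 against 122 ± 151 CPM (SD, n = 5), with 101 of its 172 UMIs without PYMT in replicate 7. Cells without an epithelial UMI had 13456 ± 8638 CPM of it (SD, n = 5), and it could not be tested without the cells that had 2 or more UMIs of the immune cell list. The carbonic anhydrase gene Car12, Emid1, the protease inhibitor gene Cst3, the glycolytic gene Aldoc, the transcription factor gene Trps1 and Xist, the RNA that silences an X chromosome, fell by 1.47, 1.12, 0.86, 0.82, 0.67 and 0.64 on the log2 scale (adjusted p = 0.015, 0.0091, 0.0067, 0.044, 0.045 and 0.025 by edgeR). Trib1, Itm2b, Ly6e and Igfbp5, a binding protein of insulin-like growth factors, fell by 0.63, 0.51, 0.51 and 0.48 (adjusted p = 0.035, 0.0065, 0.015 and 0.015 by edgeR).

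Of 12 markers of the hormone-sensing luminal cells that the selection did not use, only 3 were deep enough to be tested, and 2 of them rose, S100a6 and Ly6a. Over all 1812 genes tested, 1.38% were called higher. Ly6a, which encodes the surface antigen Sca-1 and has close relatives in the Ly6 cluster, was at 314 ± 258 against 96.2 ± 153 CPM (SD, n = 5), higher in 5 of 5 mice (adjusted p = 0.00058 by edgeR). The summed level of the list was 1956 to 6195 CPM without PYMT and 587 to 4440 CPM with it, higher in 5 of 5 mice, and most of it was S100a6. The other 10 genes of the list summed to 336, 467, 728, 879 and 236 CPM without PYMT and 281, 249.8, 537, 462 and 354 CPM with it, higher in 4 of 5 mice and lower in replicate 7. The defining receptor genes Esr1 and Pgr had 2 and 2 UMIs and 2 and 1. In cells with 4 or more UMIs of the 5 hormone-sensing genes of the rule, Ly6a was at 2887 CPM, S100a6 at 8878 CPM and Krt7 at 984 CPM, above the cells without PYMT, whereas Dmkn was at 35.4 CPM, Krt14 at 36.9 CPM and Gja1 at 44.8 CPM, below them. These genes are examples, and their even split does not speak for the other genes that rose. Anxa1, Anxa2 and Anxa3 were also above, at 2171, 1211 and 281 CPM against 1061, 1091 and 231 CPM in cells without PYMT. Apoe was below, at 64.3 against 409 CPM. How many of all the genes that rose lay above or below is not given. With the cells that had 1 UMI of those 5 genes left out, a setting added after the data had been seen, 28 of the 41 calls that could be tested were still called and all kept their direction.

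Of the immune cell list, S100a8, a calcium-binding protein abundant in neutrophils, was the only gene tested and rose (log2 fold change 1.69, adjusted p = 0.048 by edgeR), although DESeq2 gave a log2 fold change of 0.93 and an adjusted p of 0.99. The list summed to 1738, 233, 234, 1202 and 2522 CPM without PYMT and 218, 416, 136, 545 and 1003 CPM with it, higher in 4 of 5 mice. Ptprc, the gene of the leukocyte antigen CD45, had 9 and 4 UMIs. Without the cells that had 2 or more UMIs of this list, 17 genes rose and 20 fell, and 27 of the 44 calls that could be tested were still called, all with the same direction. Apoe, Car12, Dkkl1, Dmkn, Gata3, Hey1, Perp, S100a8, Sdc1 and Tspan8 could not be tested there. The 17 that missed the threshold were Scgb2b27, Emid1, Cst3, Muc15, Trps1, Cebpd, Btg2, Xist, Trib1, Hes1 and Ly6e among the genes that fell and Slpi, Scd1, Mif, Anxa2, Tpm1 and Npm1 among those that rose. Emid1 was then at -0.66 and Cst3 at -0.55 (log2 fold change), with adjusted p = 0.21 and 0.11 by edgeR. Stromal and erythroid genes were too low to be tested. The stromal list summed to 224, 133, 227, 1174 and 339 CPM without PYMT and 106, 83.3, 111, 139 and 1726 CPM with it. It was higher in 4 of 5 mice but far lower in replicate 7. The erythroid list summed to 268, 33.4, 6.68, 102 and 325 CPM without PYMT and 256, 66.6, 6.17, 37.0 and 6107 CPM with it. The highest value by far was that of the cells with PYMT of replicate 7. The part of these cells in the result was not tested.

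**Figure D5:**
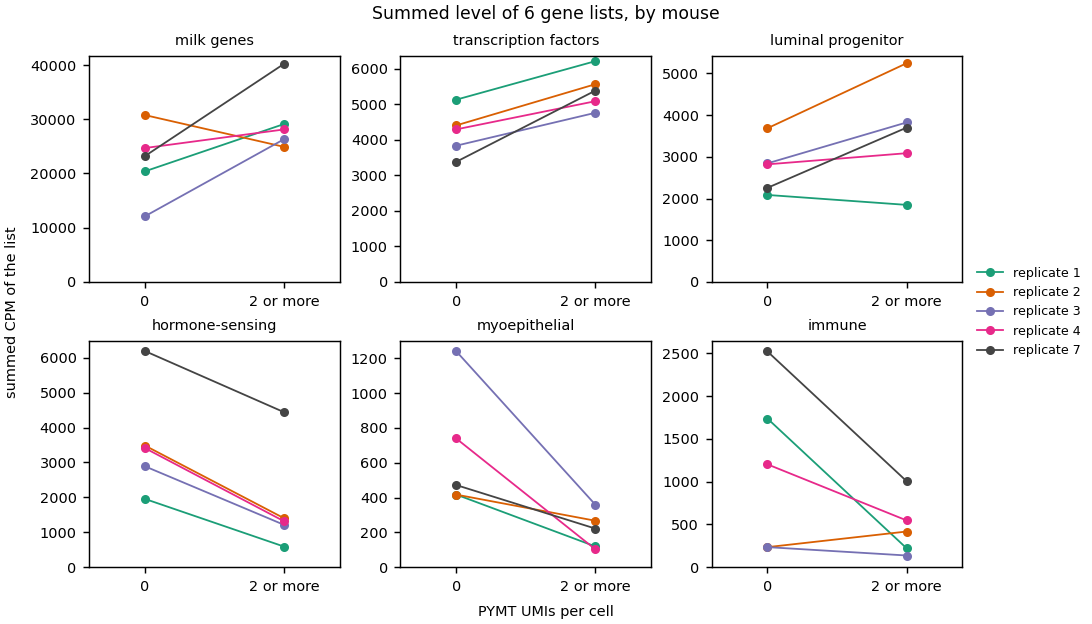
Summed level of 6 gene lists (vertical axes, CPM, each axis from 0) in cells without a PYMT UMI and in matched cells with 2 or more, with a line for each of the 5 mice. The transcription factors are lower and the hormone-sensing and myoepithelial lists higher without PYMT in 5 of 5 mice, and the immune list is higher in 4 of 5.

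Among the response genes of pathways that PyMT is known to drive, none was called. Of 20 MAPK and PI3K response genes, 9 were tested (0 called by edgeR or DESeq2, 2 at an unadjusted p under 0.05 by edgeR), with a median log2 fold change of -0.38. Egr1, an early target of MAPK signaling, was at 1472 ± 663 against 1943 ± 1033 CPM (SD, n = 5, adjusted p = 0.25 by edgeR), and Ccnd1, the gene of cyclin D1, at 247 ± 104 against 220.5 ± 102 CPM (SD, n = 5, adjusted p = 0.90 by edgeR). Of the cell cycle, glycolysis, and MHC class I and interferon lists, 6, 8 and 13 genes were tested and 0 were called in each by edgeR or DESeq2, with 1, 2 and 1 at an unadjusted p under 0.05 by edgeR. Mki67, the proliferation antigen, had 29 UMIs without and 23 with PYMT and was not tested. The glycolysis genes had a median log2 fold change of 0.33, and Aldoc, a glycolytic gene outside that list, fell. Hk2, the hexokinase that the study deleted in its other arm, had 28 and 18 UMIs and was not tested. Over all genes tested, 247 of 1812 had an unadjusted p under 0.05 by edgeR. Genes without a call are not thereby shown to be alike in both groups.

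The steroid receptors that act on the MMTV promoter were scarcely captured. Nr3c1, the glucocorticoid receptor gene, was at 79.4 ± 51.6 against 86.6 ± 30.8 CPM (SD, n = 5) and was not tested. Of 7 tested genes of this list, which also holds genes that respond to glucocorticoids, Cebpd fell and 0 rose, and Sgk1, a kinase induced by these hormones, was at 370 ± 135 against 333 ± 145 CPM (SD, n = 5, adjusted p = 0.91 by edgeR). Among acute-phase and defense proteins, 1 of 10 tested rose, the protease inhibitor Slpi (log2 fold change 0.88, adjusted p = 0.041 by edgeR, 0.13 by DESeq2). Of 16 tested genes that respond to tissue handling, Btg2 fell (log2 fold change -0.64, adjusted p = 0.021 by edgeR, 0.17 by DESeq2) and 0 rose. Only 1 of the 16 had a log2 fold change above 0, their median was -0.22, and 5 had an unadjusted p under 0.05 by edgeR, against 247 of all 1812 genes tested. The handling list summed to 18430, 37059, 13018, 26716 and 30327 CPM without PYMT and 24484, 31913, 14584, 27791 and 47481 CPM with it, higher in 1 of 5 mice. Its part in the result was not tested. Of the genes by which the study followed epithelial-mesenchymal change, Cdh1 alone was tested. As for RNA quality, none of 81 tested ribosomal protein genes was called (0 at an unadjusted p under 0.05), with a median log2 fold change of 0.069. None of the 3 tested nuclear RNAs of the fixed list was called either, but they ranged from -0.65 to 0.76 (log2) and 2 of them were at an unadjusted p under 0.05 by edgeR. Xist, a nuclear RNA outside that list, fell.

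The genes that chose the cells differed as well, which is given as a description. Wfdc18, a small secreted whey protein, was at 16345 ± 3145 against 20227 ± 4916 CPM (SD, n = 5), Lcn2, the siderophore-binding lipocalin, at 8963 ± 3033 against 11377 ± 3494 CPM (SD, n = 5), and Plet1 at 1816 ± 697 against 2310.1 ± 827 CPM (SD, n = 5), each lower without PYMT in 4 of 5 mice. Krt18 was higher in 5 of 5 mice, at 2969 ± 636 against 2426 ± 645 CPM (SD, n = 5), and Epcam was at 2734 ± 587 against 2963 ± 491 CPM (SD, n = 5). The median sum of the 3 alveolar genes was 37 to 81 UMIs per cell without PYMT and 65 to 75 with it, against a minimum of 3. Since every cell was required to have UMIs of these genes, their levels are no check of the alveolar label.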

How the data were processed

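The authors mapped Drop-seq reads to a reference of mm10 and the PyMT gene and deposited 1 matrix of raw UMI counts (genes by barcodes) for each tumor. The submitters' processing notes name STAR and FastQC, and also human builds (GRCh37.p13, hg19), which the mouse gene symbols contradict. Whether counting used strand is not given in the sources used here.

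The members and gene lists were chosen with earlier results of these data known. Mitochondrial genes were left out, and no doublet caller was run beyond the limit of 6000 genes. Between the libraries, 0 alveolar-type barcodes were shared. Cells were matched 1 to 1 on the log of total UMIs by optimal assignment. In replicate 3 the matched cells with PYMT had more UMIs than their partners. Sums were fitted with edgeR 4.0.16 in R 4.3.3 (TMM factors, filterByExpr, quasi-likelihood test blocked by mouse, threshold 0.05), leaving out PYMT and the 11 genes of the rule. Both sums of a mouse come from 1 library, so they are paired by construction. DESeq2 1.42.0 was the other tool. Named genes are those of the fixed lists and the 15 called genes with the largest fold changes in each direction among those changed the same way in every mouse by CPM. Any other gene was named after its values were seen. The fitting script was tested on simulated data with a dispersion (spread beyond counting error) of 0.1, against a common dispersion of 0.023 in the data. With 2-fold changes it called 41 of 172 changed genes and 0 unchanged genes. With 4-fold changes it called 155 of 155 changed genes and 7 unchanged genes. The simulated mice did not differ in the mean level of a gene, unlike those of the data, so the block by mouse was not tested in this way. P-values of the edgeR fit measure the spread of the within-mouse difference over mice, estimated with information from all genes tested. Differences in level between mice are taken up by the block. SE is the size of the log2 fold change divided by the square root of the F statistic of the test. Intervals cover counting error only. The arm with HK2 deletion was not analysed here.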

Additional observations from a re-analysis of the deposited data

Results flagged for a closer look

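Of 33 sets of values over mice, 2 held a mouse apart from the others, where chance alone gives about 1 in 20. For Ly6a, replicate 7 had a log2 difference of 1.04 between cells without PYMT and matched cells, below the other 4 mice of the fit. For Perp, replicate 2 had a log2 difference of 2.98, above the others, on 1 UMI in its cells with PYMT.

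Of 1812 genes, 4 differed in their PYMT effect between replicate 7, the only WT mouse of the fit, and the CB series by the interaction test of edgeR (132 genes at an unadjusted p under 0.05). The log2 fold change in replicate 7 minus that in the CB series was -1.97 for Krt19, 2.15 for Mt1, 3.31 for Mt2 and -3.81 for Wfdc12 (adjusted p = 0.045, 0.0054, 0.018 and 0.042 by edgeR). Mt1 and Mt2, which encode metallothioneins, were at 2508 and 826 CPM without PYMT and 560.5 and 88.5 CPM with it in replicate 7, against 1048 to 2765 and 509 to 1351 CPM without and 1407 to 3109 and 324 to 1686 CPM with PYMT in the CB series. Krt19, a luminal keratin, was higher without PYMT in the 4 CB mice and lower in replicate 7 (634 against 959 CPM), and so was Wfdc12, a protease inhibitor of the whey protein family (280 against 929 CPM). The WT side of this test is 1 mouse, assumed to vary like the CB mice, from which alone the spread comes, so series and mouse cannot be told apart.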

How the results depend on the processing

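The higher and lower counts, 25 and 29 as reported, moved to 48 higher without matching, 40 higher with cells thinned to 1500 UMIs, 9 and 6 with PYMT groups called after thinning, 51 and 48 from 1000 UMIs, 0 and 0 from 2500 UMIs (fewer cells and genes), 10 and 8 by DESeq2, 68 higher without the filter, and 0 and 0 without the replicate block. Among settings added after seeing the data, cells with 1 hormone-sensing UMI left out gave 15 and 17, counting cells with a UMI gave 0 and 2, and the WT series with at least 5 pairs gave 0 and 1 of 311 genes. The mean log2 ratio of genes per cell, -0.023, changed sign to 0.0057 with PYMT groups called after thinning, 0.0074 with at least 5 pairs and 0.052 in the WT series with at least 5 pairs. The settings with PYMT groups called after thinning and from 1000 UMIs held 7 mice, against 5 in the main fit. Leaving out 1 replicate gave 6 to 32 higher and 9 to 29 lower. Without replicate 3, 6 and 9 were called (14 of them among the 54), and without replicate 1, 12 and 17. The causes were not tested. Of 652 values of the 30 named genes under the alternatives, 504 kept direction and side of the threshold, 147 lost the call and 1 reversed, Gm23935 at 0.085 (log2) with PYMT groups called after thinning. This count and the numbers of alternatives per gene include settings that add nothing. A minimum of 20 pairs per mouse gave the main fit again. The CB series alone and the setting without replicate 7 are the same fit, counted as separate settings. DESeq2 gave no adjusted p for 10 of the 30, Dennd2d, Gata3, Hey1, Dkkl1, Tspan8, Gja1, Perp, Sdc1, Cnn2 and Anxa3. Without the replicate block the 54 genes kept their direction, which the same sums had largely fixed. The WT series alone with at least 10 pairs was not run, since it holds 1 mouse. Depth of about 2000 UMIs per cell limits what a PYMT count of 0 shows.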
